A study of Homo sapiens with 2 samples.

Results

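The genes of the NF-kB subunits and of their inhibitors were compared between SUDHL6 and HT, established human cell lines of diffuse large B cell lymphoma, an aggressive cancer of B cells. The set held 10 genes, the subunit genes REL, RELA, RELB, NFKB1 and NFKB2 and the inhibitor genes NFKBIA, NFKBIB, NFKBIE, NFKBIZ and TNFAIP3. A gene took its value from the probe set that the platform annotation of GEO assigns to that gene alone, or from the one with the highest mean of both arrays where there were several. A probe set is the group of probes along a gene that is combined into 1 value. Of the 10 members, 9 had such a probe set, 1 each, among 14232 genes with a value of their own. NFKBIZ was covered only by a probe set that it shares with NXPE3, so its value is given apart.

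The SUDHL6 cells and the HT cells were cultured in RPMI GlutaMAX medium containing serum and antibiotics, were left untreated, and gave total RNA for 1 Affymetrix exon array per line. The series title ties the arrays to the killing of lymphoma cells by an inhibitor of PRC2, a complex that silences genes by methylating histone H3. Each group is therefore 1 culture of 1 cell line. No spread between replicates exists, no test could be made between the lines, and no difference below has a p-value or a standard error.

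NF-kB proteins are transcription factors that bind DNA as pairs of subunits. RELA, REL and RELB carry their own activation domains, whereas NFKB1 and NFKB2 are made as long precursors that are cut to the DNA-binding subunits p50 and p52. IkB proteins hold the pairs in the cytoplasm until the IkB kinases mark them for destruction, and NF-kB then switches on, among others, the genes of its own inhibitors. In B cells the pathway runs from the B cell receptor, CD40 and Toll-like receptors, and REL is the subunit best known from germinal centre B cells.

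Those feedback loops act through kappaB sites in DNA, so the bases just before the transcription starts of the members were searched for the kappaB consensus. RefSeq starts on GRCh38.p14 were in the table for 8 of the 10 members, all but RELB and NFKBIE. The 250 bases before a start held at least 1 match, on either strand, in 7 of these 8 genes, all but RELA, and before 9 of their 14 starts. Across the table, 6.28% of 27305 genes and 5.21% of 35116 starts had a match in a window of the same length. Several members are textbook genes with kappaB sites, so the share describes these genes and is no test. A match shows that the letters are there, not that a factor binds. The 6 windows below are those of the 3 members with the largest differences (REL, NFKBIZ and NFKBIA), of 2 members with a match and a difference under 0.5 (NFKB1 and TNFAIP3), and of RELA, which had none. They are written in the direction of transcription, and capitals mark matches.
REL (chr2:60881324-60881573, plus strand): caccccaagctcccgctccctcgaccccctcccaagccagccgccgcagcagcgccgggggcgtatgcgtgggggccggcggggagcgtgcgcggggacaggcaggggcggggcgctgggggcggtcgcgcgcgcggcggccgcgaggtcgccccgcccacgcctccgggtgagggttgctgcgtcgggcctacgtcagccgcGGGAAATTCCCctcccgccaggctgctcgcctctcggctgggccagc
NFKBIZ (chr3:101827740-101827989, plus strand): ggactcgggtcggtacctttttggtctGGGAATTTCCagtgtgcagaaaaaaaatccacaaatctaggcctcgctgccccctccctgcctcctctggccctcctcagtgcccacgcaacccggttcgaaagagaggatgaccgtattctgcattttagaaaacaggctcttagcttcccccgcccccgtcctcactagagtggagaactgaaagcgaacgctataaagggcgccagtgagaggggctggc
NFKBIA (chr14:35404750-35404999, minus strand): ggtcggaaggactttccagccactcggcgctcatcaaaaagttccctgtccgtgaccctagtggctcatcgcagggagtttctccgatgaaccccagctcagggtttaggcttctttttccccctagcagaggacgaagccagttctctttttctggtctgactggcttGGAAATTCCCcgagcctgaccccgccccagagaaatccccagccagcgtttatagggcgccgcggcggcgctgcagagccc
NFKB1 (chr4:102501109-102501358, plus strand): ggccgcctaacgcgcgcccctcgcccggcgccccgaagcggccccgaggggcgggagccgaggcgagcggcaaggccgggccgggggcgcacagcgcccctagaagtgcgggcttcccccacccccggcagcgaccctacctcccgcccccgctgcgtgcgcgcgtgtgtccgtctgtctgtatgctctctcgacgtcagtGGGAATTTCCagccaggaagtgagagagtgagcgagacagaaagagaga
TNFAIP3 (chr6:137867009-137867258, plus strand): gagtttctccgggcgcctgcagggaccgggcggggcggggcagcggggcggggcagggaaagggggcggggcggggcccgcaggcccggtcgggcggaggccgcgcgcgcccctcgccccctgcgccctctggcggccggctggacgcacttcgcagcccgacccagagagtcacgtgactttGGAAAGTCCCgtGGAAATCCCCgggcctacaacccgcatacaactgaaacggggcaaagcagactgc
RELA (chr11:65662917-65663166, minus strand): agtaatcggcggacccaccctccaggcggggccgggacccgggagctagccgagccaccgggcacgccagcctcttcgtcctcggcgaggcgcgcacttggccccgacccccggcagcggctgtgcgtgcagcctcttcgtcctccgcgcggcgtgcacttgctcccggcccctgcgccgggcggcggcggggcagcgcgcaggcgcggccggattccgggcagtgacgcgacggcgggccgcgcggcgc
The REL window held the run GGGAAATTCCC at bases -47 to -37 from the start, where a match on the plus strand overlaps one on the minus strand. NFKB1 had 1 match at -49 to -40, and NFKBIA had 1 at -81 to -72 that reads on the minus strand. TNFAIP3 had a pair at -67 to -58 and -55 to -46, both on the minus strand. NFKBIZ had 1 match, at -223 to -214, and another at -239 to -230 from its second start. NFKB2 had matches before 2 of its 3 starts, at -107 to -97 and -78 to -69 before 1 and at -176 to -167 and -21 to -12 before the other. NFKBIB had overlapping matches at -28 to -18 from 1 of its 2 starts.

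**Figure D1:**
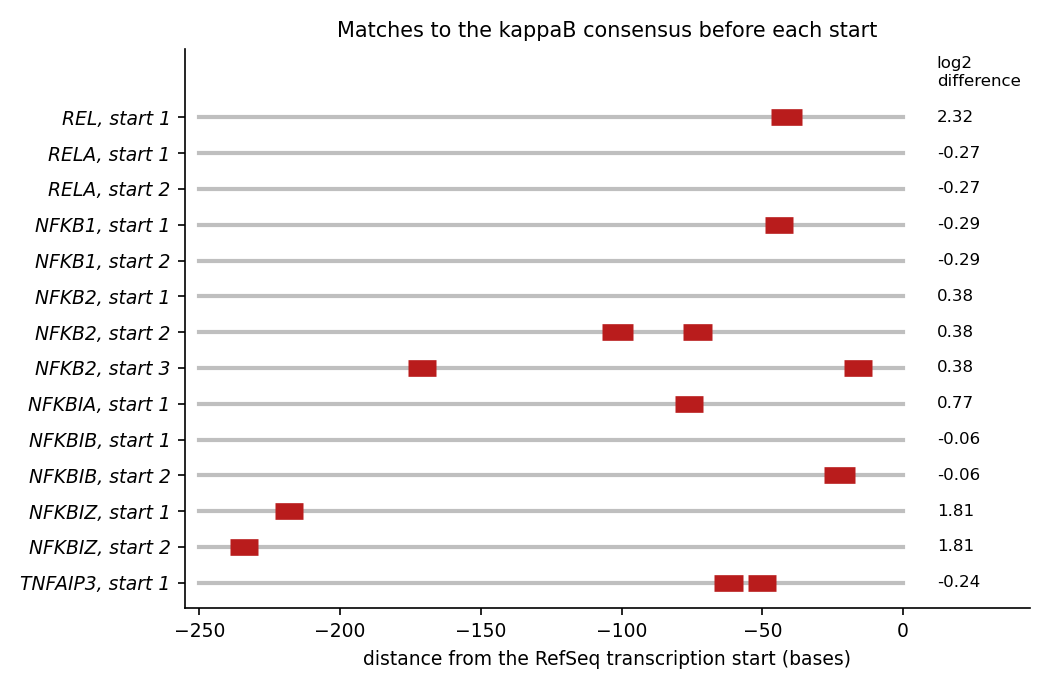
Positions of matches to the kappaB consensus (red blocks) in the 250 bases before each RefSeq transcription start of 8 members (grey lines, 1 per start, numbered by rising coordinate), with the log2 difference SUDHL6 minus HT of the gene at the right. NFKBIZ stands with the value of its shared probe set. Matches occur before genes with a large difference (REL, 2.32) and with a small one (NFKBIB, -0.06) alike, and RELA has none.

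The deposited values are on the log2 scale after RMA, which brings the arrays to a common distribution and combines the probes of a gene. They ran from 0.333 to 13.99 in SUDHL6 and from 0.385 to 13.97 in HT over 22011 probe sets. A dim level, the 95th percentile of 225 olfactory receptor genes that lymphoma cells were taken not to use, was 3.81 in SUDHL6 and 4.11 in HT. The call rule asked for a log2 difference, SUDHL6 minus HT, of at least 1 in size, and for a higher value at or above its own line's dim level. A fold is 2 raised to the difference, and a fold against a value below the dim level is computed against that level and written as "at least". Over the 9405 genes whose higher value reached the dim level, the quartiles of the difference were -0.38 and 0.22 and the median was -0.05. The central 95% of the olfactory receptor genes lay between -1.03 and 1.26, which is the nearest measure of noise and holds for dim genes. Levels are compared between the lines for 1 gene at a time, never between genes, since probe sets differ in how brightly they read.

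The B cell label fits its markers: 8 of the 9 measured exceeded the dim level in both lines, among them PAX5, CD79A and MS4A1, and CD72 was so in SUDHL6 alone. MS4A1, the gene of CD20, was itself called, 6.01-fold higher in SUDHL6, and CD72 at least 3.49-fold higher. Markers of other cell types also exceeded the dim level in both lines: 2 of 9 for T cells, 1 of 6 for NK cells and 1 of 7 for myeloid cells. So did 2 of 6 fibroblast and 2 of 5 epithelial markers, among them KRT8 at 8.27 in SUDHL6 and 8.12 in HT. Of the marker lists of other cell types, only that of fibroblasts had called genes, LUM and DCN, both higher in HT, with COL1A1 and COL1A2 within 0.1 between the lines. The values of its 6 genes, summed on the linear scale over the same probe sets in each line, came to 80.3 in SUDHL6 and 176 in HT. No marker was listed at 0. The part of such cells or genes in the results below was not tested.

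REL was the 1 member called, higher in SUDHL6, and for HT the count was 0. A further 7 members exceeded the dim level and differed by -0.29 to 0.77, while TNFAIP3 was dim in both lines. Of the 8 members above the dim level, 1 was called (12.5%), against 12.3% of the 9405 genes above it (5.3% higher in SUDHL6 and 6.99% higher in HT), so the share of called members was close to that of all genes. At a difference of at least 0.5, 2 of the 8 passed (25%), REL and NFKBIA, both higher in SUDHL6, against 32.6% of all genes above the dim level (13.1% higher in SUDHL6 and 19.5% higher in HT). The median difference of the 9 members was -0.06, or 0.07 with the shared probe set of NFKBIZ included, and that of all 14232 genes was -0.04. Over the 9 members, 4 values were higher and 5 lower in SUDHL6 than in HT, and each kept its sign under quantile and loess normalization.

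Among the subunits, REL was at 8.63 in SUDHL6 and 6.31 in HT, both well above the dim level. The difference of 2.32 is a 5.0-fold higher value in SUDHL6. A bulk array cannot tell more RNA per cell from more cells that express the gene. The difference of REL was the 125th of 9405 when genes above the dim level were ranked from the furthest above HT in SUDHL6. Of 1135 genes whose mean level lay within 0.5 of that of REL, 0.969% differed by at least as much in either direction, and their quartiles were -0.56 and 0.24.

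RELA, the most widely used activating subunit and the usual partner of p50, was at 5.97 in SUDHL6 and 6.24 in HT. NFKB1, which encodes the p105 precursor of p50, was at 6.21 in SUDHL6 and 6.51 in HT. These differences of -0.27 and -0.29 lay inside the quartiles of genes of like mean level, which were -0.50 and 0.22 for RELA and -0.53 and 0.19 for NFKB1. Both were opposite in sign to REL.

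RELB and NFKB2 encode the pair of the alternative pathway, in which the kinase NIK drives the cutting of p100 to p52. RELB was at 5.13 in SUDHL6 and 4.93 in HT. It differed by 0.19. NFKB2 was at 4.93 in SUDHL6 and 4.55 in HT. It differed by 0.38. Both were higher in SUDHL6 by less than 1. Of genes of like level, 58.2% differed by at least as much as RELB and 30.1% by at least as much as NFKB2. The gene of NIK itself, MAP3K14, is covered by a probe set shared with its antisense gene, and that probe set read 4.29 in SUDHL6 and 4.28 in HT.

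Among the inhibitors with a probe set of their own, NFKBIA had the largest difference. The gene encodes IkB-alpha, the inhibitor that NF-kB induces fastest and that returns it to the cytoplasm, and it was at 6.55 in SUDHL6 and 5.78 in HT. Its difference of 0.77, or 1.71-fold, was the second largest among the members with a probe set of their own and ranked 737th of 9405. It stayed under the threshold of 1, and 22.9% of genes of like level differed by at least as much. NFKBIB, the gene of IkB-beta, was at 4.74 in SUDHL6 and 4.80 in HT. NFKBIE, the gene of IkB-epsilon, was at 4.77 in SUDHL6 and 4.89 in HT. These other classical IkB genes differed little, by -0.06 and -0.12, and 85.6% of genes of the level of NFKBIB and 71.1% of those of the level of NFKBIE differed by at least as much.

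NFKBIZ encodes IkB-zeta, a nuclear IkB protein that acts with p50 on a subset of NF-kB genes. Its shared probe set read 6.87 in SUDHL6 and 5.06 in HT. That is 1.81 on the log2 scale, or 3.50-fold. This would pass the threshold, and 3.83% of genes of like level differed by at least as much. NXPE3, the other gene named, also has a probe set of its own, which read 6.13 in SUDHL6 and 5.85 in HT and differed by 0.29. Which gene the shared probe set reads was not tested, and its value is not counted among the members.

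TNFAIP3 encodes A20, a ubiquitin-editing enzyme that shuts the pathway off upstream of the IkB kinases and is often lost in lymphoma. It was at 3.67 in SUDHL6 and 3.91 in HT, under the dim level of each line. No fold is given for it, and a dim value is no sign that the gene is silent.

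**Figure D2:**
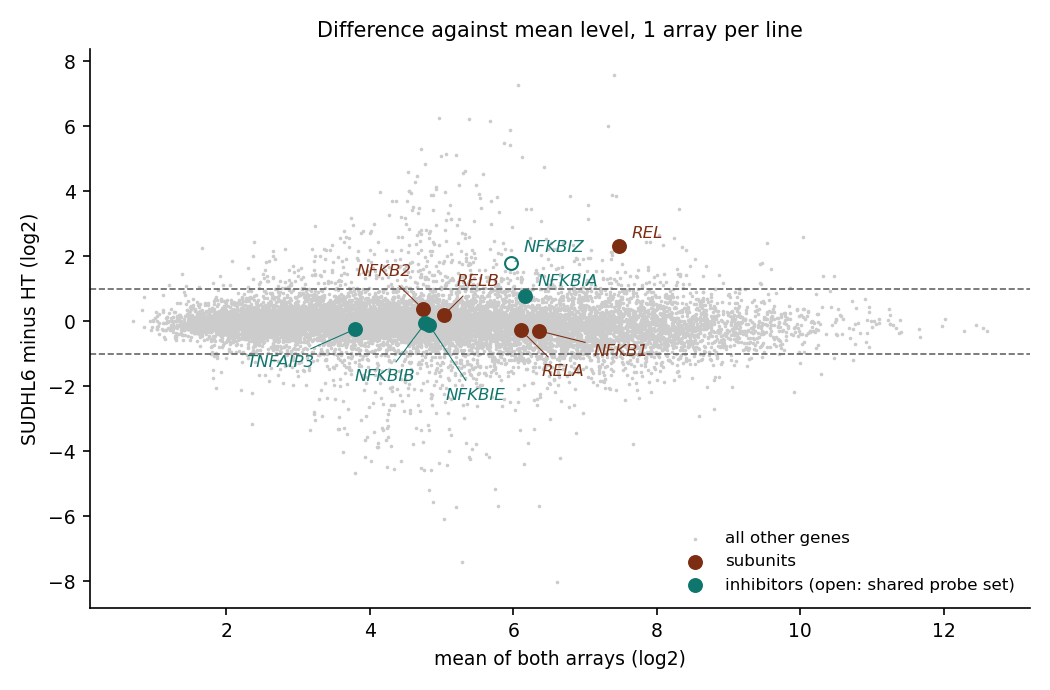
Difference SUDHL6 minus HT (log2, vertical axis) against the mean of both arrays (log2, horizontal axis) for all genes with a value (grey) and the members (brown, subunits; green, inhibitors; open circle, shared probe set of NFKBIZ), with dashed lines at -1 and 1. REL (2.32) lies above the upper line and NFKBIA (0.77) under it. Of genes at the level of REL, 0.969% differed by at least as much as REL in either direction.

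Neighbouring genes were read beside each member, because a difference that spans a stretch of chromosome is shared by the genes next to it. The 10 nearest genes with a value on each side were taken from the RefSeq gene order. REL lies on chromosome 2, and its 20 neighbours had a median difference of -0.01, with 10 above 0 and 10 below. All 20 had a lower difference than REL. The gene next to it on 1 side, PAPOLG, a poly(A) polymerase gene, was at 6.98 in SUDHL6 and 6.51 in HT. On the other side PUS10, a pseudouridine synthase gene, was at 6.45 in SUDHL6 and 7.11 in HT. Neither immediate neighbour was called, and they differed in sign.

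Some genes further out were called. BCL11A, a transcription factor gene of B cell development and the second gene from REL, was 2.49-fold higher in SUDHL6, at 6.77 against 5.45 in HT. SANBR, the second gene on the other side, was at least 1.93-fold higher in SUDHL6, and EHBP1, the tenth, was 2.32-fold higher. CFAP36 and XPO1, the gene of the main nuclear export receptor, were 2.64-fold and 2.17-fold higher in HT. Of the 16 neighbours of REL above the dim level, 3 were thus called higher in SUDHL6 and 2 higher in HT. Over all genes above the dim level these shares were 5.3% and 6.99%. Whether the genes around REL differ as a stretch was not tested.

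NFKBIA and NFKBIE differed most from their surroundings after REL. The 20 neighbours of NFKBIA, on chromosome 14, had a median of -0.41, and all 20 had a lower difference than NFKBIA. Relative to that median NFKBIA stood at 1.18 and passed the threshold of 1. NFKBIE, on chromosome 6, showed the opposite arrangement: 18 of its 20 neighbours were higher in SUDHL6, with a median of 0.77. Relative to that median NFKBIE stood at -0.89. Of its 18 neighbours above the dim level, 6 were called, all higher in SUDHL6, against 5.3% of all genes above it. RELA, RELB, NFKB1, NFKB2, NFKBIB and TNFAIP3 lay between -0.38 and 0.44 from the medians of their neighbours.

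**Figure D3:**
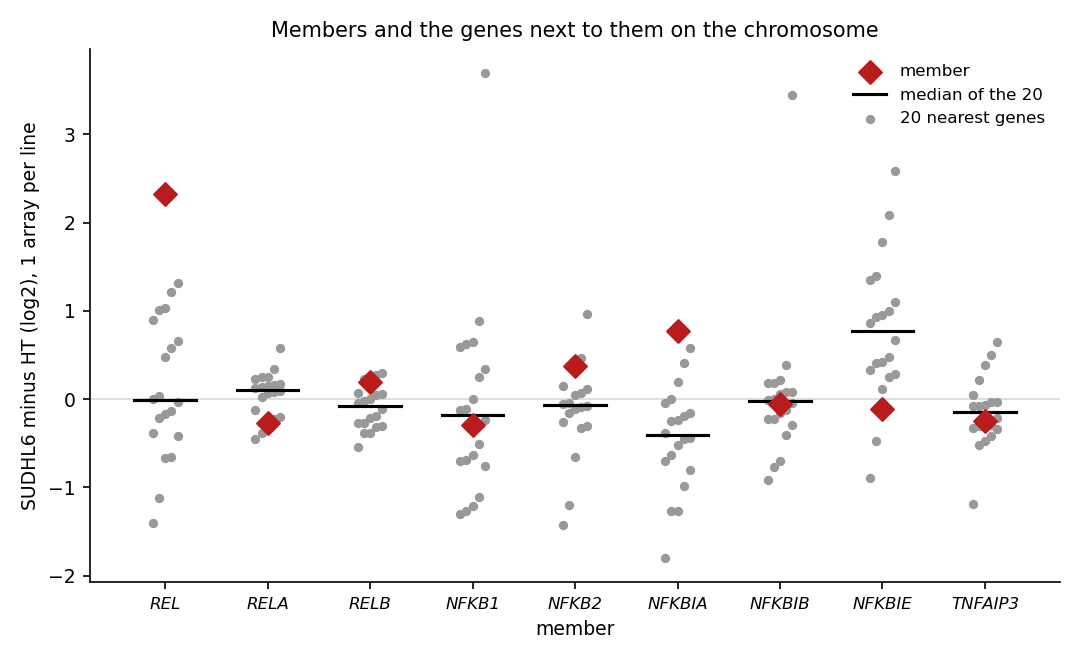
Difference SUDHL6 minus HT (log2, vertical axis) of each of 9 members (red diamonds) and of its 20 nearest genes with a value (grey points, 10 on each side in RefSeq order), with the median of the 20 as a bar. REL and NFKBIA lie above all 20 of their neighbours, and NFKBIE lies below 18 of 20.

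The rest of the pathway was described over 101 further genes in 8 lists, of which 78 had a value of their own. Of the 55 above the dim level, 6 were called higher in SUDHL6 and 7 higher in HT, 23.6% in all against 12.3% of all genes above the dim level. The median difference of the 78 genes was -0.11. The lists were drawn up with earlier results on some of their genes known, so the counts describe these genes.

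The IkB kinases differed in opposite directions. IKBKB, the catalytic subunit of the classical pathway that phosphorylates IkB, was 2.09-fold higher in SUDHL6, at 5.96 against 4.89 in HT. CHUK, the other catalytic subunit and the one the alternative pathway needs, was 2.19-fold higher in HT, at 6.95 in SUDHL6 and 8.08 in HT. IKBKG, the scaffold subunit NEMO, was dim in both lines. TAB3, an adaptor of the upstream kinase TAK1, was 2.20-fold higher in HT. Its difference was -1.03 under quantile and -1.01 under loess normalization, also close to the threshold. The TAK1 gene MAP3K7 was at 7.86 in SUDHL6 and 8.14 in HT. Of the 9 genes of this list, 8 were above the dim level. Of these, 1 was called higher in SUDHL6 (12.5%) and 2 in HT (25%), against 5.3% and 6.99% of all genes above it. The median of the list was -0.26. TAB1 held the same value in both lines, 3.90.

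Adaptors, ubiquitin ligases and the partners of A20 mostly had lower values in SUDHL6. Over all genes above the dim level the median was -0.05 and the lower quartile -0.38. The lower quartile was -0.24 for genes of the level of NFKBIB and -0.56 for those of the level of REL. Sign counts and medians of both lists describe these genes and were not tested. TRAF5, an adaptor of CD40 and related receptors, was 4.02-fold higher in HT, at 4.51 in SUDHL6 and 6.52 in HT. BIRC2, the ligase cIAP1 that keeps NIK low, was at 7.28 in SUDHL6 and 8.22 in HT, just under the threshold. No member of this list of 9 had a higher value in SUDHL6. In 8 it was lower, RNF31 held 4.86 in both lines, and the median was -0.40. It was -0.22 with probe sets naming several genes included, when 2 of 11 genes were higher in SUDHL6, and -0.17 with the median of the neighbours subtracted.

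CYLD and RNF11 were the called genes among A20 partners and deubiquitinases. They were 33.3% of the 6 above the dim level, against 12.3% of all genes above it. CYLD, a deubiquitinase that removes activating chains from the pathway, was 3.02-fold higher in HT, at 4.51 in SUDHL6 and 6.11 in HT. RNF11, a subunit of the A20 complex, was at least 2.16-fold higher in HT, at 3.40 in SUDHL6 and 4.93 in HT. All 8 genes of the list with a value were lower in SUDHL6, with a median of -0.38, although 4 of the 6 brighter than the dim level stayed under 1. Among them the ligase gene ITCH was at 7.80 in SUDHL6 and 8.24 in HT and TAX1BP1, an adaptor of A20, at 8.68 in SUDHL6 and 8.69 in HT.

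The remaining regulators gave 1 call among 4 genes above the dim level (25%), against 12.3% of all genes above it. SIRT1, a deacetylase known to act on RELA, was 3.26-fold higher in HT, at 8.01 in SUDHL6 and 9.72 in HT. The coactivator gene CREBBP was at 6.57 in SUDHL6 and 7.24 in HT. The median of this list was -0.47 over 4 genes with a value of 10 listed, and -0.21 over 6 with probe sets naming several genes included. Of the further IkB family genes, BCL3, a nuclear IkB protein that works with p50 and p52, was at 5.33 in SUDHL6 and 5.28 in HT, NFKBIL1 was at 4.78 in SUDHL6 and 5.11 in HT, and 0 of 3 were called.

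**Figure D4:**
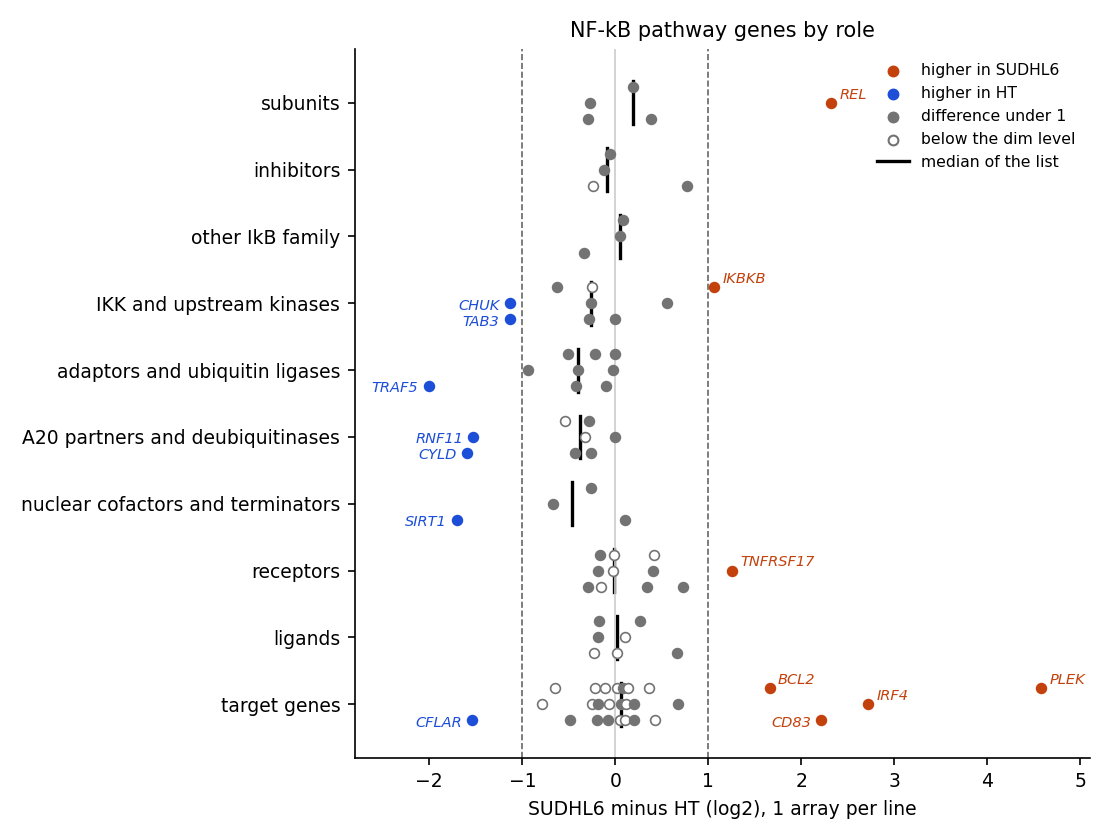
Difference SUDHL6 minus HT (log2, horizontal axis) of NF-kB pathway genes by list, with called genes named (red, higher in SUDHL6; blue, higher in HT), other genes in grey, genes below the dim level as open circles, a black bar at the median of each list and dashed lines at -1 and 1. REL, IRF4, CD83 and PLEK lie furthest to the right, and TRAF5, SIRT1 and CYLD furthest to the left.

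Receptors and ligands mostly lay within 1. TNFRSF17, which encodes the receptor BCMA of plasma cells, was 2.39-fold higher in SUDHL6, at 7.16 against 5.90 in HT. CD40, the receptor for T cell help, was at 5.20 in SUDHL6 and 4.48 in HT. The other 5 receptor genes brighter than the dim level also stayed under 1, and the median over 11 was -0.01, with the other sign under quantile normalization and with the median of the neighbours subtracted. None of the 7 ligand genes with a value was called. LTB, the lymphotoxin-beta gene, was at 7.09 in SUDHL6 and 6.43 in HT, LTA, the lymphotoxin-alpha gene, was at 5.61 in SUDHL6 and 5.78 in HT, and the median of the list was 0.02, with the other sign under 3 alternatives.

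Values existed for 27 known NF-kB target genes, of which 14 exceeded the dim level, 4 of these called higher in SUDHL6 and 1 in HT. Those shares of the 14 are 28.6% and 7.14%, against 5.3% and 6.99% of all genes above the dim level. The list was drawn up with earlier results on some of its genes known, so these shares describe the genes and are no test. With probe sets naming several genes included, the calls were 4 higher in SUDHL6 and 4 higher in HT among 17 target genes above the dim level, as STAT5A, FAS and SOD2 joined those higher in HT. PLEK, which encodes pleckstrin, a platelet and leukocyte protein, exceeded HT by at least 11.1-fold in SUDHL6, at 7.59 against 3.01 in HT. IRF4, which drives plasma cell differentiation, was at least 5.79-fold higher, at 6.65 in SUDHL6 against 3.93 in HT. CD83, a surface protein of activated B cells, was 4.65-fold higher, at 7.70 in SUDHL6 against 5.48 in HT, and BCL2, which blocks cell death, at least 2.17-fold higher. Of these 4 genes, only CD83 exceeded the dim level in both lines. PLEK, IRF4 and BCL2 passed it through SUDHL6 alone.

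CFLAR, an inhibitor of caspase-8, ran the other way and was at least 2.34-fold higher in HT. ICAM1, an adhesion molecule induced by NF-kB in many cell types, was at 4.92 in SUDHL6 and 4.25 in HT. The targets JUNB, IER3, GADD45B, BCL2L1 and CCL22 differed by -0.19 to 0.20. XIAP, IRF1 and TNFAIP2, also among the 14 above the dim level, differed by -0.49, 0.09 and 0.06. The 13 targets outside those 14, among them CD44, CCR7, TRAF1 and CCND2, were dim in both lines. The median of the 27 was 0.06, and -0.30 when values were raised to the dim level, a setting that gave all genes the same median. That value is the gap between the dim levels of the lines, which the setting gives to every gene dim in both.

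Promoter matches to the kappaB consensus, described above for the members, occurred among genes called in either direction. Of the genes called in these lists outside the members, CD83, higher in SUDHL6, and CFLAR and CYLD, higher in HT, had a match. The next counts are over list genes in the RefSeq table, with or without a value of their own. A match stood before 9 of 27 target genes, 3 of 7 ligand genes and 3 of 9 genes of A20 partners and deubiquitinases. It stood before 2 of 14 adaptor and ligase genes and 1 of 3 further IkB family genes. None stood before 9 kinase genes, 9 receptor genes and 7 of the remaining regulators. The share of all genes there was 6.28%. The lists hold known NF-kB genes, so these counts are no test. Of 646 genes above the dim level with a match before a start, 6.81% were called higher in SUDHL6 and 6.04% higher in HT. Of 7060 without one, 5.16% had a call for SUDHL6 and 7.01% for HT. The median difference was 0.00 over 926 genes with a match and -0.05 over 10460 without.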

How the data were processed

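The deposited table holds 1 log2 value per probe set and line, made by the authors with RMA and the Affymetrix Expression Console, per the submitters' processing notes. The sources used here give no version, setting or genome build. RMA compresses differences between dim genes. Probe sets with 1 gene in GEO's platform annotation (14432 of 22011) were used. Symbols were updated through gene numbers to RefSeq, which matched 14404. Promoters, gene order and kappaB matches came from RefSeq tables of GRCh38.p14. Gene positions were used for order alone.

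Samples were grouped by the cell line label. With 1 array per line, differences, counts and medians were computed without tests (Python 3.11.15, pandas 2.3.3, statsmodels 0.14.6). The number of arrays limits the precision. The call rule was tested on simulated differences. The motif search was tested on simulated sequence of A and T with planted sites, which cannot show how often a false match occurs. Alternatives changed the normalization, the probe set of a gene, the dim level, or subtracted the neighbours' median. Members and lists were chosen with earlier results of these data known.

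Named were all members, up to 4 called genes per list and direction, or the 2 with the highest mean level where none was called, and, for REL, the 2 nearest neighbours per side and called neighbours. Other genes were named after their values were seen. 1 planned gene list is not reported here.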

Additional observations from a re-analysis of the deposited data

Results flagged for a closer look

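The probe set shared by NFKBIZ and NXPE3 was left out of the members because it names more than 1 gene. It read above the dim level in both lines, at 6.87 in SUDHL6 and 5.06 in HT, and its difference was 1.81. Which of the 2 genes it reads was not tested.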

How the results depend on the processing

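Across 8 alternatives, 36 results gave 288 values, of which 283 kept their call, were counts within 1.5 times of the reported one (7 to 10 for list genes higher in HT), or, for values with no call, moved by no more than 0.303 (0.5 of the interquartile range of the differences), and 0 called differences changed sign. Many of these values could not change. A stricter or absent dim level leaves a difference as it is, and each member with its own probe set has only 1. REL ranged from 2.32 to 2.45, and the lower end is its value under those settings. The count of called members was 2 with probe sets naming several genes included, where NFKBIZ joined REL, and 2 with the median of the neighbours subtracted, where NFKBIA reached 1.18 and NFKBIE -0.89. Among all genes above the dim level, 5.27% were called higher in SUDHL6 and 6.87% higher in HT in the first setting. In the second setting these shares were 5.43% and 5.62%. Under quantile normalization they were 6.12% and 6.04%, and under loess normalization 6.21% and 5.97%. The larger share for HT over all genes, 6.99% against 5.3% as reported, was thus not kept under either normalization. Raising values to the dim level gave the target list a median of -0.30, which is also the median it gives all genes. It is the gap between the dim levels of the lines, given to every gene dim in both. Medians near 0 also changed sign: that of the members was 0.07 with probe sets naming several genes included, and those of the receptor and ligand lists turned under some alternatives. No paired analysis was possible because each line has 1 array. The number of arrays limits every value: with no replicate, differences between cultures of 1 line cannot be told apart from differences between the lines.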

Other observations

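The genes around NFKBIE on chromosome 6 formed the most one-sided neighbourhood of the 9 members, and the genes named here were chosen after their values were seen. VEGFA, the gene of a blood vessel growth factor, was at 6.61 in SUDHL6 and 4.03 in HT. The fold was at least 5.65 in favour of SUDHL6. POLH, a translesion DNA polymerase gene, was at 9.34 in SUDHL6 and 7.94 in HT, and XPO5, which exports precursors of microRNAs, was at 8.34 in SUDHL6 and 7.24 in HT. ENPP4, ENPP5 and RCAN2 were also called higher in SUDHL6, by 3.43-fold, at least 1.98-fold and 2.54-fold. NFKBIE, at 4.77 in SUDHL6 and 4.89 in HT, was not among the 18 higher genes that surround it.

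Further NF-kB targets were read by probe sets that name several genes. A probe set of STAT5A and STAT5B, signal transducers of cytokine receptors, was at 4.99 in SUDHL6 and 7.39 in HT, and another of the same genes at 3.43 in SUDHL6 and 5.64 in HT. A probe set of SOD2, the mitochondrial superoxide dismutase, and its overlapping transcript SOD2-OT1 was at 6.23 in SUDHL6 and 7.54 in HT. Another, shared by SOD2 and FAM177B, was dim in both lines and higher in SUDHL6, at 3.07 against 2.19 in HT. FAS, a death receptor gene, was at 4.96 in SUDHL6 and 6.72 in HT in a probe set shared with STAMBPL1, while its own probe set was dim in both lines, at 3.27 in SUDHL6 and 4.06 in HT.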
